A study of Mus musculus with 10 samples.

Results

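The unstimulated state of 2 immortalized mouse macrophage lines was compared, one wild type and one without Toll-like receptor 9 (TLR9). The arrays were chosen by their titles alone: 2 arrays of the unstimulated TLR9KO line and 3 arrays of the unstimulated wild-type line, 5 of the 10 arrays of the series. The growth protocol names the wild-type cells as B6, and no other allele or agent is given for either line. Cells had been plated on 10 cm dishes, and 100 ng of total RNA was amplified for an Affymetrix array of whole-transcript cDNA. The other 5 arrays were of the same lines after 4 h with β-1,3 glucan beads (3 wild type, 2 knockout) and entered only where stated and in the estimate of spread. Each genotype was 1 line, so the genotype and everything else that differs between the lines cannot be told apart. The labels do not state whether replicate arrays were independent cultures, and p-values here speak only of the scatter among the arrays, which may be technical.

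TLR9 is an endosomal receptor that binds DNA rich in unmethylated CpG and signals through the adaptor MyD88 to NF-kappaB and interferon regulatory factors. Macrophages are phagocytes whose identity is kept by factors such as PU.1 and by growth factor signals through the CSF1 receptor. Beyond host defence they recycle iron, digest cargo in acid lysosomes, handle cholesterol, clear dying cells and secrete factors that act on clotting and matrix. An immortalized line also divides without end, so its resting state holds the programme of a growing cell as well as that of a macrophage.

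The values are RMA log2 signals of the authors, between 3.08 and 13.79 in the whole table, and a difference of 1 is a 2-fold difference. Across genes the unstimulated arrays of a line correlated at a Pearson r of 0.9938 to 0.9981, and arrays of different lines at 0.9729 to 0.9777. Unstimulated knockout arrays 1 and 2 and wild-type array 2 correlated best with a bead array of their own line (0.9969, 0.9966 and 0.9961). The 2 unstimulated knockout arrays correlated with each other at 0.9949. What lies behind this was not tested. Wild-type bead array 3 stood apart from its own group (mean r with its group 0.9729, against 0.9851 to 0.9966 for the other arrays) and widened the pooled estimate of spread, so counts are given with and without it. Tlr9 itself read 7.32, 6.91 and 7.25 in the wild-type arrays and 7.44 and 7.62 in the knockout arrays. That difference of 0.37 ± 0.15 (SE) did not pass (adjusted p = 0.244), and it is not known whether the probes fall inside the deletion, so Tlr9 does not check the labels. The macrophage markers Lyz2 and Csf1r were bright in both lines. Other defining markers were less bright, among them Cd14 and Mertk, whose values are given further on. Lyz2, the macrophage lysozyme, read 12.57, 12.68 and 12.47 in the wild-type arrays and 12.56 and 12.62 in the knockout arrays. Csf1r, the CSF1 receptor, read 11.36, 11.27 and 11.39 in the wild-type arrays and 12.08 and 12.02 in the knockout arrays, a difference of 0.71 ± 0.12 that passed (adjusted p = 0.0061). Of the markers of other cells, 0 of 13 for dendritic cells, 0 of 18 for granulocytes and mast cells and 0 of 13 for fibroblasts and stroma passed the limma test, and 0, 1 and 0 of them had an unadjusted p under 0.05. Il7r among 17 lymphocyte markers, Kdr and Vwf among 12 epithelial and endothelial markers and Pf4 among 5 erythroid and megakaryocyte markers passed, and Il7r lay under the 25th percentile of every wild-type array. These were bulk RNA samples, so fewer cells that express a gene and less of its RNA per cell cannot be told apart. The call of Csf1r was lost under 3 of the 15 alternatives.

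The lines differed at 1645 of 19938 genes tested (8.25%), 755 higher (3.79%) and 890 lower (4.46%) in the knockout line. Without wild-type bead array 3 the same fit passed 3668 genes (18.4%), 1412 higher (7.08%) and 2256 lower (11.3%), and all 1645 genes were among them with the same direction. In every one of the 1645 the 2 knockout arrays lay wholly above or below the 3 wild-type arrays, as they did for 38.8% of all genes. The total was 681 without unstimulated knockout array 1, 733 without array 2, 1048 and 988 without wild-type arrays 1 and 3, and 756 with the arrays centred on their medians, and 0 of the 386 genes named by rule changed direction under any of the 15 alternatives. Differences of at least 2-fold were found for 307 higher and 198 lower genes, and of at least 4-fold for 85 and 38. For 42 of the genes that passed, the lower line read under the 25th percentile of each of its arrays, and such differences are not given as folds. Olfactory and vomeronasal receptors, which macrophages are not known for, and microRNA genes stayed below this background. In the limma test 0 of 1027 olfactory receptors, 0 of 167 vomeronasal receptors and 0 of 291 microRNA genes passed, and 2, 1 and 8 of them had an unadjusted p under 0.05. Most were dim in both lines. Among 379 solute carriers 11 were higher and 23 lower (8.97%, near the share of all genes).

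Interferon-stimulated genes headed the higher genes, with 27 of 33 listed members higher, 0 lower and a median difference of 2.26. Those that follow are genes outside that list. The list is short, and genes outside it, such as Ccl5 below, can also be induced by interferon. Whether their differences are separate from those of the listed genes was not tested. Dcstamp, a membrane protein needed for the fusion of macrophages into giant cells and osteoclasts, read 5.18, 5.09 and 5.06 in the wild-type arrays and 8.20 and 8.36 in the knockout arrays. It was 9.0-fold higher (log2 3.17 ± 0.18, SE, here and below over 2 knockout and 3 wild-type arrays; adjusted p = 8.9e-06). Emp2, a tetraspan membrane protein, read 5.33, 5.34 and 5.32 in the wild-type arrays and 8.36 and 8.58 in the knockout arrays and was 8.84-fold higher (3.14 ± 0.16). Ccnd2, a D-type cyclin of the G1 phase, read 7.92, 7.63 and 7.83 in the wild-type arrays and 10.52 and 10.90 in the knockout arrays, a 7.56-fold difference (2.92 ± 0.13). In each of these the wild-type arrays lay within a narrow band and both knockout arrays far above it. Itga6, an integrin chain that binds laminin, was 5.7-fold higher (2.51 ± 0.21), and the deubiquitinase Uchl1 7.54-fold (2.91 ± 0.30). Marcksl1, a protein kinase C substrate that binds actin, was 7.12-fold higher at 2.83 ± 0.40, while its relative Marcks was 5.67-fold lower at -2.50 ± 0.24. The wild-type arrays read 5.08, 5.35 and 5.11 for Marcksl1 and 7.34, 7.73 and 7.26 for Marcks, against 8.53 and 7.50, and 4.93 and 4.95, in the knockout arrays.

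Among the lower genes, Fcgr2b, the inhibitory Fc receptor for IgG, read 11.42, 11.59 and 11.43 in the wild-type arrays and 8.48 and 8.54 in the knockout arrays. It was 7.83-fold lower (-2.97 ± 0.09, adjusted p = 2.72e-07). Gas6, a ligand of the receptor tyrosine kinases Tyro3, Axl and Mertk that bridges them to dying cells, read 10.72, 10.65 and 10.64 in the wild-type arrays and 7.98 and 7.75 in the knockout arrays and was 7.0-fold lower (-2.81 ± 0.16). F13a1, the A chain of coagulation factor XIII, read 7.95, 7.99 and 7.77 in the wild-type arrays and 5.08 and 5.40 in the knockout arrays, a 6.33-fold difference (-2.66 ± 0.21). No knockout array reached the lowest wild-type array for any of these 3 genes. Arrays of the lines were apart for every gene that passed, and for 38.8% of all genes, so this adds nothing to the calls. Kdm5b, a histone H3 lysine 4 demethylase, was 6.38-fold lower (-2.67 ± 0.17), and Chchd10, a mitochondrial protein, 6.31-fold (-2.66 ± 0.17). Igf2r, which carries mannose 6-phosphate tagged enzymes to lysosomes, was 4.85-fold lower (-2.28 ± 0.18), and Sort1, a sorting receptor, 3.87-fold (-1.95 ± 0.18). Rxra, the partner of many nuclear receptors, was 4.15-fold lower (-2.05 ± 0.16), and Prkcb, a protein kinase C isoform, 4.69-fold (-2.23 ± 0.15).

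**Figure D1:**
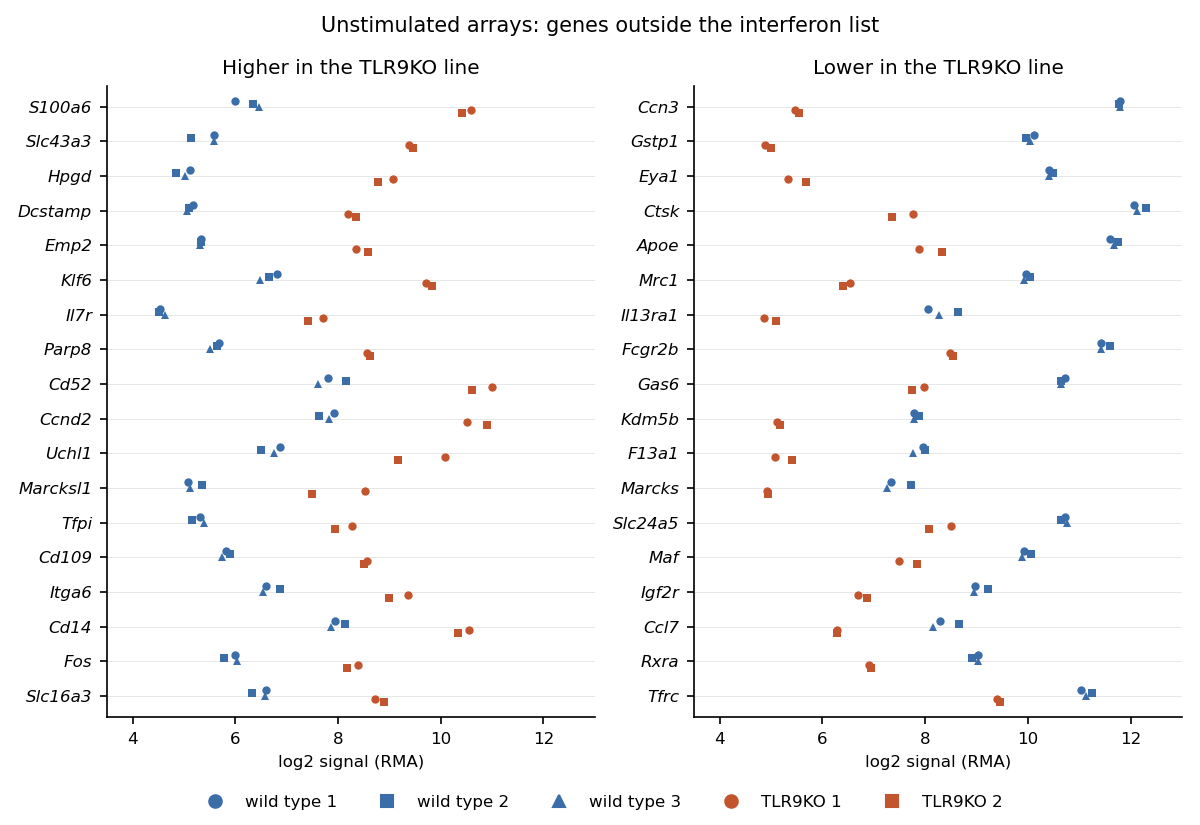
Log2 signal (RMA) of 18 genes higher and 18 genes lower in the TLR9KO line in each unstimulated array, 1 point per array (3 wild type, 2 TLR9KO). In every row the points of the lines are apart, as for every gene that passed. Rows run from S100a6 and Ccn3 at the top to Slc16a3 and Tfrc at the bottom. The wild-type values of Il7r lie under the 25th percentile of their arrays.

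**Figure D2:**
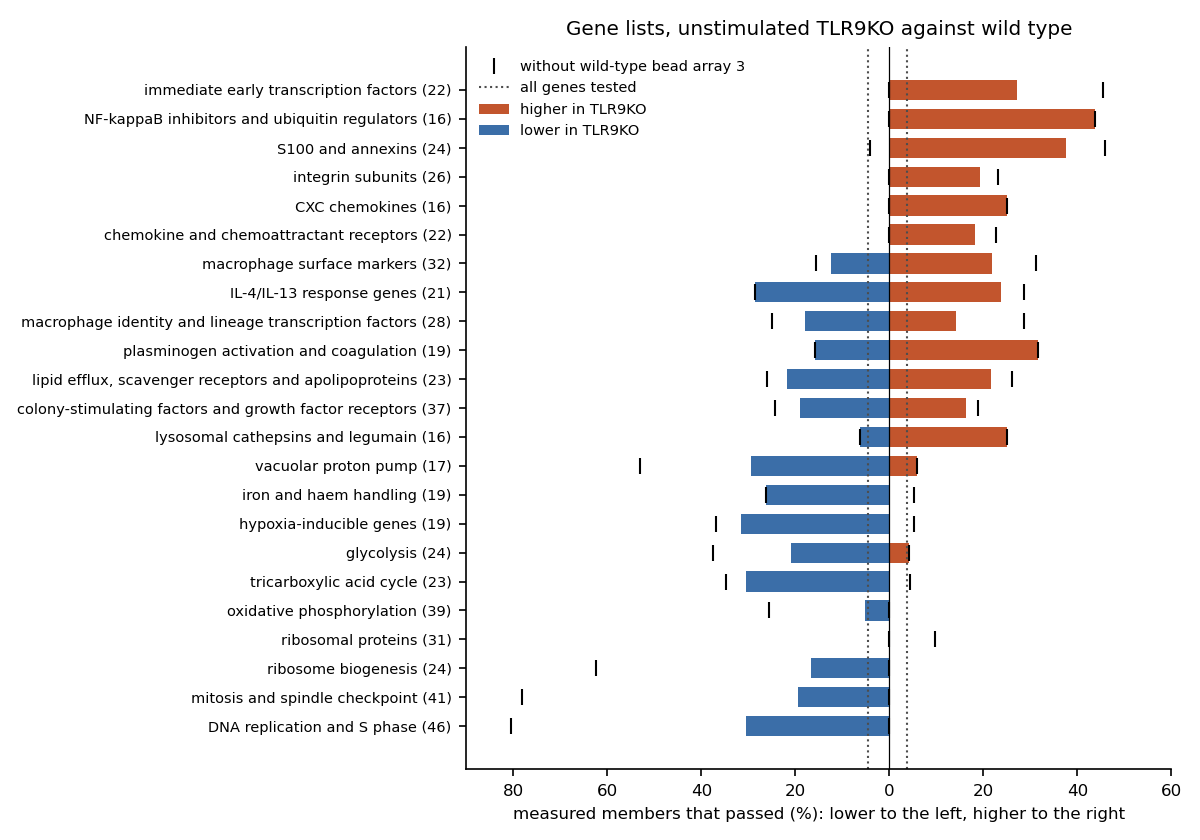
Percent of measured members (number in brackets) of 23 gene lists that passed, bars to the right for higher and to the left for lower in the TLR9KO line, with ticks for the fit without wild-type bead array 3 and dotted lines at 3.79% and 4.46% for all genes. Lists of growing cells (S phase, mitosis, ribosome biogenesis) have bars only to the left, and S100 and annexins, NF-kappaB inhibitors and immediate early genes only to the right.

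All 46 measured members of the replication and S phase list read lower in the knockout line, from -1.38 to -0.08, with a median of -0.54 against 0.02 over all genes. Of these, 14 passed (30.4%, against 4.46% of all genes), all lower. Without wild-type bead array 3 there were 37, against 11.3% of all genes lower in that fit. All genes include dim ones, and of the 9950 brighter genes, those above the median signal, 624 were higher and 831 lower. For the counts of every list below the background was 3.79% of all genes higher and 4.46% lower. Without wild-type bead array 3 it was 7.08% and 11.3%. Mcm2, a subunit of the helicase that opens DNA at origins, read 10.43, 10.52 and 10.58 in the wild-type arrays and 9.17 and 9.25 in the knockout arrays. It was 2.46-fold lower (-1.30 ± 0.09, adjusted p = 2.6e-05). Ccne1, the cyclin that starts S phase, read 9.82, 9.88 and 9.74 in the wild-type arrays and 8.58 and 8.47 in the knockout arrays and was 2.44-fold lower (-1.29 ± 0.13). Rfc2, a subunit of the clamp loader, read 9.62, 9.60 and 9.60 in the wild-type arrays and 8.35 and 8.10 in the knockout arrays, 2.61-fold lower (-1.38 ± 0.20). The knockout arrays lay below all 3 wild-type arrays in each case, as for every lower gene that passed, and the means differed by 1 log2 unit or more. Among other subunits of the same helicase, Mcm7 differed by -1.05 ± 0.13, and Mcm5 and Mcm6, named after their values were seen, by -0.93 ± 0.14 and -0.93 ± 0.11. The count of S phase members that passed ran from 7 without unstimulated knockout array 2 to 39 with array weights. Of the 14, 3 lay in the chromosome 5 and chromosome 1 stretches described further on and 11 outside them.

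E2F factors are known to drive replication genes through sites in their promoters, and the promoters of 3 helicase subunits that passed are shown because they carry such letters. Each is the RefSeq window from 250 bases before to 50 after the start (GRCm38.p6), 5′ to 3′ on the gene's strand, with matches to TTTNNCGC, or its reverse GCGNNAAA, in capitals and overlapping matches run together. They lie at chr8:75109259-75109558, plus strand (Mcm5), chr1:128359656-128359955, minus strand (Mcm6) and chr5:138171834-138172133, minus strand (Mcm7).
Mcm5: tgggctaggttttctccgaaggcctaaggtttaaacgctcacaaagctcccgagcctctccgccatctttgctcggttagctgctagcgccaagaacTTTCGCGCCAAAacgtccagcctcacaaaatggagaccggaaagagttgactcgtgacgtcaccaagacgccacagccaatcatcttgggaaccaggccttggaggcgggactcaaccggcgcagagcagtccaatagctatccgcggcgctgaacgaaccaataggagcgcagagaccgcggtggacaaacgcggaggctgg
Mcm6: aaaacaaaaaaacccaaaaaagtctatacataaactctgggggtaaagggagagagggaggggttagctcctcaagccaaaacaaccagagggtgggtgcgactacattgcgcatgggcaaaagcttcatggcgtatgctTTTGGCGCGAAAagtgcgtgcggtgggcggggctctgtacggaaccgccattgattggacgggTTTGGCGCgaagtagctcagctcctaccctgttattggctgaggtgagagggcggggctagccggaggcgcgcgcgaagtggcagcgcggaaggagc
Mcm7: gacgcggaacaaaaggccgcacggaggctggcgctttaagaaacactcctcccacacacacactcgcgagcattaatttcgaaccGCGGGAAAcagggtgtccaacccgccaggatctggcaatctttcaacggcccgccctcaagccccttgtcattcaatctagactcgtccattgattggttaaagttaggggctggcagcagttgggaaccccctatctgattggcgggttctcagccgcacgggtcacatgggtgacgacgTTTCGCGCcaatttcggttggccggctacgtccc
The window held 2 matches for Mcm5, 3 for Mcm6 and 2 for Mcm7. Of 45 promoters of 38 S phase genes in the RefSeq table, 17 (37.8%) held the letters on either strand. The share was 5.17% for all 32851 promoters and 6.51% for those of the genes tested. It was 6.64% for the promoters of all genes that were higher and 7.65% for those of all genes that were lower. A match is a description of the window and shows no binding.

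In the list of mitosis and the spindle checkpoint all 41 measured members read lower, from -1.15 to -0.11 with a median of -0.57. The test passed 8 (19.5%, against 4.46% of all genes), all lower, and 32 without wild-type bead array 3. Nuf2, a kinetochore subunit that holds microtubules, read 8.78, 8.91 and 8.83 in the wild-type arrays and 7.98 and 7.65 in the knockout arrays, 2.04-fold lower (-1.03 ± 0.15, adjusted p = 0.00297). Bub1, a spindle checkpoint kinase, read 9.96, 10.21 and 9.91 in the wild-type arrays and 9.08 and 8.92 in the knockout arrays, 2.03-fold lower (-1.02 ± 0.16). Plk1, the polo-like kinase of mitotic entry, read 10.31, 10.59 and 10.46 in the wild-type arrays and 9.62 and 9.66 in the knockout arrays, 1.76-fold lower (-0.82 ± 0.13). In none of these 3 did the arrays of the lines overlap, as in no gene that passed. The count of mitotic members that passed ran from 2 with the arrays centred on their medians, or 3 without either unstimulated knockout array, to 35 with array weights. The calls of Bub1 and Plk1 were lost under 1 to 2 of the 15 alternatives.

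CCAAT boxes bound by NF-Y are a known feature of mitotic promoters, and those of Bub1 (chr2:127831810-127832109, minus strand) and Plk1 (chr7:122159185-122159484, plus strand) are shown in the same RefSeq window, with CCAAT or its reverse ATTGG in capitals.
Bub1: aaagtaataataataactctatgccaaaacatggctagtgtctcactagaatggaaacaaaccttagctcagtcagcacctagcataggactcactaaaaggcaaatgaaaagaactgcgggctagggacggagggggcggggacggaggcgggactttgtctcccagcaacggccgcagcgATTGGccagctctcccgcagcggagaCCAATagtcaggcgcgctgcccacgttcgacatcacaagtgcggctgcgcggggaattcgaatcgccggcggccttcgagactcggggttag
Plk1: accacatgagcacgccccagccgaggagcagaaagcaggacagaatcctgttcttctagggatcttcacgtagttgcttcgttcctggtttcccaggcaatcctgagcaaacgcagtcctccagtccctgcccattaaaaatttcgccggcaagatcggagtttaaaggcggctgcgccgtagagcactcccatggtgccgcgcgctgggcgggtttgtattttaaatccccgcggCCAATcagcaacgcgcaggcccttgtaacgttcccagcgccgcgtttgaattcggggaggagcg
Bub1 held 2 matches and Plk1 held 1. The letters were in 27 of 36 promoters of 33 mitotic genes (75%), against 37.4% of all promoters and 40.6% of those of all lower genes. In the S phase list 57.8% held them. Matches to the E2F and NF-Y letters shared bases in 7 promoters of the table, the Mcm7 window among them.

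Cyclins and their inhibitors did not move as a group. Of 29 measured, 3 were higher and 4 lower (6 and 8 without wild-type bead array 3), with a median of 0.05, and the lower count ran from 1 with the arrays centred on their medians or without either unstimulated knockout array to 9 with array weights. D-type cyclins, which link growth signals to the cell cycle, went separate ways. Ccnd2 was higher as given above. Ccnd3 read 9.27, 9.24 and 9.20 in the wild-type arrays and 8.65 and 8.52 in the knockout arrays and was 1.58-fold lower (-0.66 ± 0.13), and Ccnd1 differed by -0.51 ± 0.10. Gadd45b, a stress gene that can slow the cycle, read 8.10, 8.02 and 8.05 in the wild-type arrays and 9.14 and 9.14 in the knockout arrays, 2.11-fold higher (1.08 ± 0.09). The calls of Ccnd3 and Ccnd1 were lost under 3 to 5 of the 15 alternatives.

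Ribosome assembly factors and ribosomal proteins are given side by side, with no test of the difference between the lists. Of 24 assembly factors, 4 passed, all lower (15 without wild-type bead array 3), and 23 read below 0, with a median of -0.48. Nolc1, a nucleolar chaperone, read 10.65, 10.44 and 10.76 in the wild-type arrays and 9.88 and 9.76 in the knockout arrays, 1.74-fold lower (-0.80 ± 0.13). Rrp12 and Rrp9, which process pre-ribosomal RNA, differed by -0.53 ± 0.10 and -0.60 ± 0.10, and the nucleolar helicase Ddx21 by -0.65 ± 0.13. For the ribosome itself, 0 of 31 ribosomal proteins passed in limma (3 higher without wild-type bead array 3, and 7 at an unadjusted p under 0.05), and their median was 0.16. The count of assembly factors that passed ran from 1 with the arrays centred on their medians or without either unstimulated knockout array to 20 with array weights. Among 29 proteasome subunits 2 were lower (6.9%, near the share of all genes; 7 lower and 1 higher without wild-type bead array 3), Psmd3 (-0.57 ± 0.13) and Psmd7 (-0.56 ± 0.10), with a median of -0.22. Their count ran from 0 with the arrays centred on their medians or without either unstimulated knockout array to 10 with array weights. The calls of Nolc1, Rrp12, Rrp9, Ddx21, Psmd3 and Psmd7 were lost under 1 to 6 of the 15 alternatives.

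**Figure D3:**
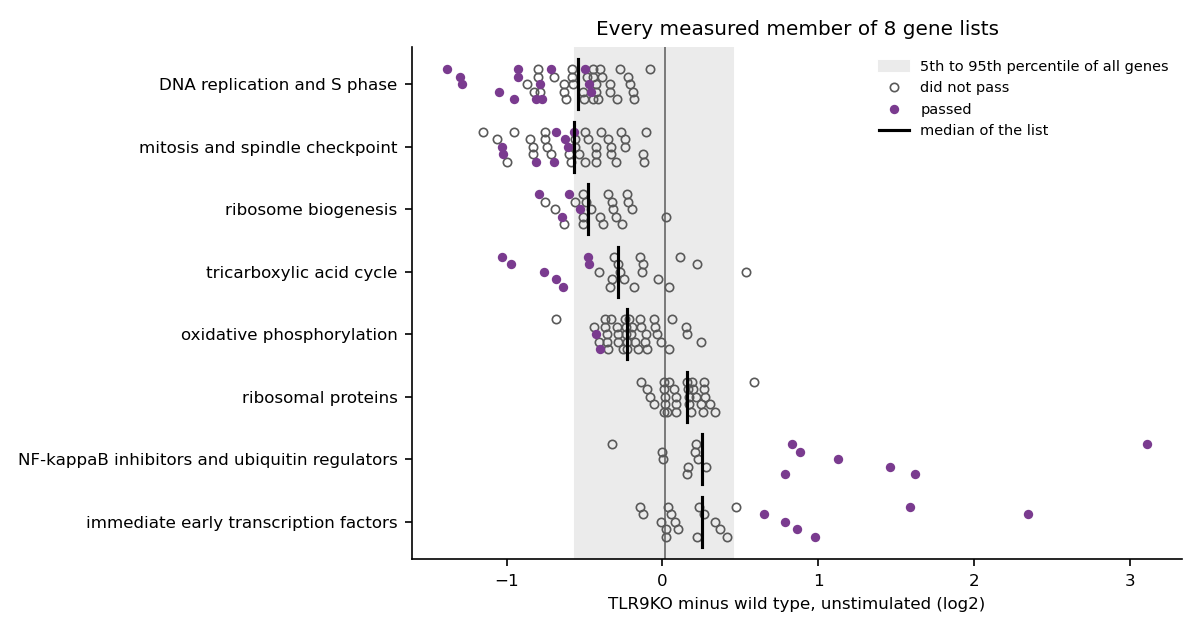
Difference between the unstimulated lines (TLR9KO minus wild type, log2) of every measured member of 8 gene lists, filled where the member passed, with a bar at each list's median and a grey band from the 5th to the 95th percentile of all genes. All points of the S phase and mitosis lists lie left of 0, ribosomal proteins lie around a median of 0.16, and Tnip3 and Fos lie farthest right.

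Transcription factors of the immediate early class are switched on within minutes of a signal. In the resting knockout line 6 of 22 measured were higher and 0 lower (10 and 0 without wild-type bead array 3), with a median of 0.25. That is 27.3% higher, against 3.79% of all genes. Fos, the partner of Jun in AP-1, read 5.99, 5.79 and 6.03 in the wild-type arrays and 8.39 and 8.17 in the knockout arrays. It was 5.08-fold higher (2.35 ± 0.15, adjusted p = 1.77e-05). Egr1 read 6.06, 5.85 and 6.25 in the wild-type arrays and 7.78 and 7.52 in the knockout arrays, 3.01-fold higher (1.59 ± 0.17), Egr2 differed by 0.98 ± 0.13 and Fosl1 by 0.87 ± 0.13. Both knockout arrays lay above the highest wild-type array for all 4 genes, as for every higher gene that passed. Klf6, a zinc finger factor of inflammatory macrophages, read 6.82, 6.65 and 6.48 in the wild-type arrays and 9.72 and 9.83 in the knockout arrays and was 8.72-fold higher (3.12 ± 0.13). Klf4 was 2.41-fold higher (1.27 ± 0.13), whereas Klf2, which is known to hold macrophages quiescent, was 1.76-fold lower (-0.81 ± 0.13). In all, 3 of 13 Krüppel-like factors were higher and 1 lower. The call of Klf2 was lost under 1 of the 15 alternatives.

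Feedback genes that end such signals differed in both directions. Of 19 phosphatases, Sprouty proteins and other MAP kinase feedback genes 4 were higher and 2 lower (6 and 3 without wild-type bead array 3), with a median of 0.13. Dusp1, a phosphatase that switches off p38 and JNK, read 7.71, 7.62 and 7.62 in the wild-type arrays and 9.96 and 9.77 in the knockout arrays, 4.64-fold higher (2.21 ± 0.15). Dusp10 and Dusp7, phosphatases of the same family, were lower at -0.74 ± 0.12 and -0.50 ± 0.11. The higher count ran from 2 with the arrays centred on their medians or with any 1 unstimulated array but wild-type array 2 left out to 6 without wild-type bead array 3, and the lower count ran from 0 without unstimulated knockout array 1 to 3 with the 5 unstimulated arrays alone. Zfp36 (tristetraprolin), which has cytokine mRNAs destroyed, read 6.71, 6.39 and 6.59 in the wild-type arrays and 9.21 and 8.47 in the knockout arrays, 4.85-fold higher (2.28 ± 0.31). Among 16 inhibitors and ubiquitin regulators of NF-kappaB, 7 were higher and 0 lower with or without wild-type bead array 3. Tnip3, which restrains NF-kappaB with A20, read 6.93, 7.15 and 6.86 in the wild-type arrays and 10.33 and 9.85 in the knockout arrays. It was 8.64-fold higher (3.11 ± 0.31), followed by Nfkbie, an inhibitor that keeps NF-kappaB in the cytosol, at 3.07-fold (1.62 ± 0.12) and the ubiquitin ligase Birc3 at 2.75-fold (1.46 ± 0.14). Of 12 NF-kappaB subunits and kinases 2 were higher, Nfkb2 (0.81 ± 0.13) and Relb (0.49 ± 0.10), both of the noncanonical arm, and their count ran from 0 without unstimulated knockout array 2 to 6 with array weights. Irak3, a kinase-like brake on Toll-like receptor signals, was 2.32-fold higher (1.21 ± 0.11). The count of NF-kappaB inhibitors that passed ran from 6 without unstimulated knockout array 1 to 9 with array weights. The calls of Dusp10, Dusp7, Nfkb2 and Relb were lost under 1 to 5 of the 15 alternatives.

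In the tricarboxylic acid cycle, 7 of 23 members were lower and 0 higher (8 and 1 without wild-type bead array 3), with a median of -0.29. That is 30.4% lower, against 4.46% of all genes. Idh3a, a subunit of the NAD-dependent isocitrate dehydrogenase, read 10.18, 10.32 and 10.19 in the wild-type arrays and 9.26 and 9.14 in the knockout arrays. It was 2.04-fold lower (-1.03 ± 0.15, adjusted p = 0.00268). Fh1, fumarate hydratase, read 10.27, 10.29 and 10.21 in the wild-type arrays and 9.28 and 9.29 in the knockout arrays, 1.96-fold lower (-0.97 ± 0.09). Mdh2, the mitochondrial malate dehydrogenase, read 12.30, 12.10 and 12.21 in the wild-type arrays and 11.57 and 11.46 in the knockout arrays and differed by -0.69 ± 0.11. The arrays of the lines did not overlap for these enzymes, nor for any other gene that passed. Of 39 respiratory chain subunits 2 passed, Ndufv1 and Uqcrc2, both lower (10 without wild-type bead array 3). Their share of 5.13% was near that of all genes, and 34 read below 0 with a median of -0.23. The count for the cycle ran from 3 without unstimulated knockout array 2 to 10 with array weights, and that for the respiratory chain ran from 0 with the arrays centred on their medians or with any 1 unstimulated array left out to 12 with array weights. The call of Mdh2 was lost under 1 of the 15 alternatives.

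Sugar use and the hypoxia response were lower in part. Of 24 glycolysis genes 5 were lower (20.8%, against 4.46% of all genes) and 1 higher (9 and 1 without wild-type bead array 3). Hk2, a hexokinase, differed by -0.58 ± 0.11, and Pfkfb3, which makes the activator of phosphofructokinase, by -0.66 ± 0.13. The gene that was higher, Slc16a3, exports lactate and read 6.59, 6.33 and 6.58 in the wild-type arrays and 8.73 and 8.89 in the knockout arrays, 4.97-fold higher (2.31 ± 0.17). Among 19 hypoxia-inducible genes 6 were lower (31.6%, against 4.46% of all genes) and 0 higher (7 and 1 without wild-type bead array 3). Adm, the vasodilator adrenomedullin, read 7.05, 6.79 and 6.98 in the wild-type arrays and 5.33 and 5.81 in the knockout arrays, 2.59-fold lower (-1.37 ± 0.18). Epas1, which encodes HIF-2α, read 8.45, 8.50 and 8.33 in the wild-type arrays and 7.13 and 7.15 in the knockout arrays, 2.44-fold lower (-1.29 ± 0.11), and the collagen hydroxylase subunit P4ha2 differed by -1.10 ± 0.15. Of the 6 pentose phosphate genes 0 passed in limma (2 higher without wild-type bead array 3, and 2 at an unadjusted p under 0.05). The glycolysis count ran from 0 without unstimulated knockout array 1 to 11 with array weights, and the hypoxia count ran from 3 with the arrays centred on their medians or without either unstimulated knockout array to 8 with array weights. The calls of Hk2 and Pfkfb3 were lost under 3 to 4 of the 15 alternatives.

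Genes of iron uptake, release and export were among the lower ones. Of 19 members of the iron list 5 were lower (26.3%, against 4.46% of all genes) and 0 higher, with a median of -0.04. Without wild-type bead array 3 these counts were 5 and 1. Tfrc, the transferrin receptor that brings iron into cells, read 11.03, 11.24 and 11.13 in the wild-type arrays and 9.40 and 9.45 in the knockout arrays. It was 3.26-fold lower (-1.70 ± 0.10, adjusted p = 9.29e-06). Hmox1, haem oxygenase, which frees iron from haem, read 11.73, 11.67 and 11.71 in the wild-type arrays and 10.48 and 10.48 in the knockout arrays, 2.33-fold lower (-1.22 ± 0.10). Slc40a1 (ferroportin), the iron exporter, read 8.21, 8.45 and 8.19 in the wild-type arrays and 7.08 and 7.11 in the knockout arrays, 2.28-fold lower (-1.19 ± 0.22). Steap3, an endosomal ferrireductase, differed by -0.79 ± 0.09. Knockout arrays lay below all wild-type arrays at each of these 4 genes, as at every lower gene that passed. Of the list, 14 members did not pass. Of 20 NRF2 targets and glutathione genes 5 were lower, Hmox1 among them, with Slc7a11, the cystine importer, at -1.06 ± 0.26 and Gclc, the rate-limiting enzyme of glutathione synthesis, at -0.75 ± 0.13. Among 20 glutathione transferases 3 were lower and 1 higher, and Gstp1 was the lowest of them at -5.10 ± 0.16. The NRF2 count ran from 1 with the arrays centred on their medians or without either unstimulated knockout array to 6 with array weights, and the lower count of transferases ran from 1 with the arrays centred on their medians or without either unstimulated knockout array to 4 with the 5 unstimulated arrays alone. The calls of Slc40a1, Slc7a11 and Gclc were lost under 3 to 5 of the 15 alternatives.

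**Figure D4:**
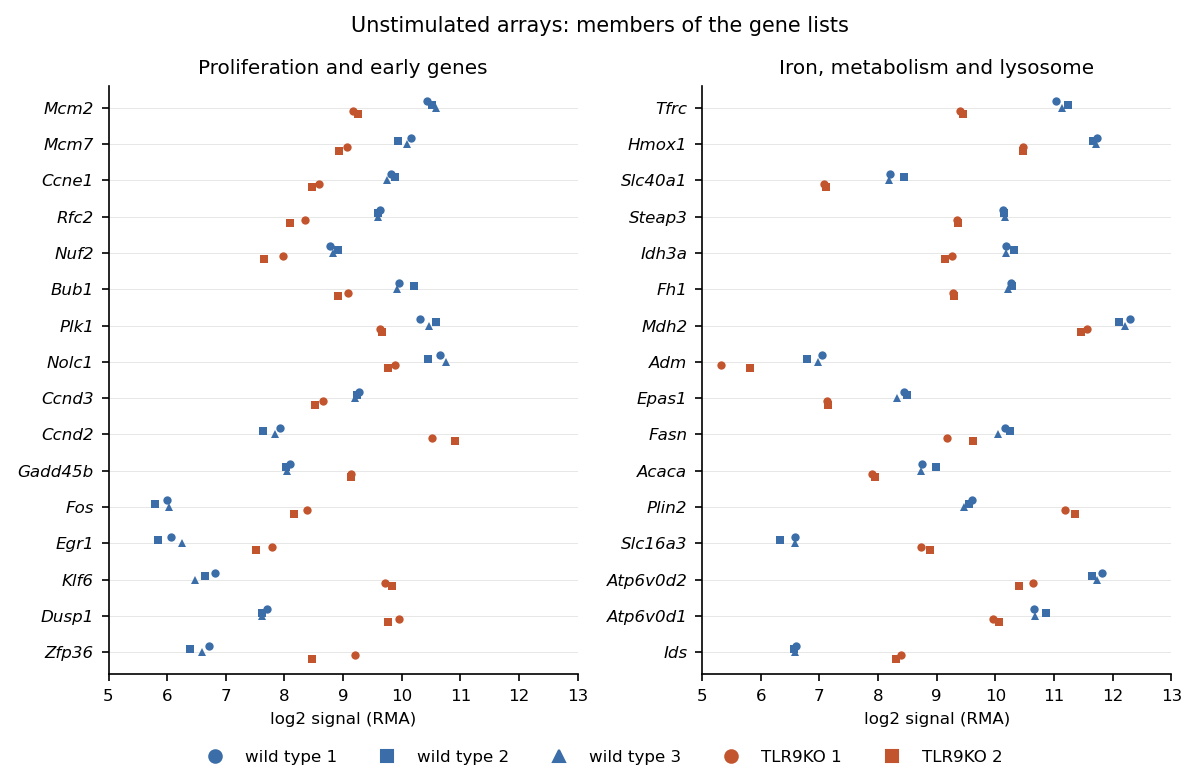
Log2 signal (RMA) of 16 proliferation and early genes (left) and 16 genes of iron, metabolism and the lysosome (right) in each unstimulated array, 1 point per array (3 wild type, 2 TLR9KO). Mcm2 to Ccnd3 and Tfrc to Acaca lie lower in the TLR9KO arrays, while Ccnd2 to Zfp36, Plin2, Slc16a3 and Ids lie higher.

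Lysosomal genes changed in both directions. Of 16 cathepsins and relatives 4 were higher and 1 lower, with or without wild-type bead array 3. The lower one was Ctsk, the collagen-cleaving protease of osteoclasts, which read 12.06, 12.29 and 12.12 in the wild-type arrays and 7.77 and 7.35 in the knockout arrays and was 24.2-fold lower (-4.60 ± 0.15). Ctss, the protease that trims the MHC class II invariant chain, was 3.2-fold higher (1.68 ± 0.12), and Cd74, that invariant chain, 4.15-fold (2.05 ± 0.26). Of 36 lysosomal hydrolases and membrane proteins 3 were higher and 4 lower (5 and 8 without wild-type bead array 3). Ids, iduronate sulfatase, read 6.61, 6.56 and 6.58 in the wild-type arrays and 8.40 and 8.30 in the knockout arrays, 3.4-fold higher (1.77 ± 0.10), whereas the sulfatase Arsg was 9.18-fold lower (-3.20 ± 0.15). Hgsnat, which acetylates heparan sulfate for its breakdown, read 11.46, 11.40 and 11.38 in the wild-type arrays and 9.38 and 9.42 in the knockout arrays, 4.03-fold lower (-2.01 ± 0.13). The proton pump that acidifies the organelle had 5 of 17 subunits lower and 1 higher (9 and 1 without wild-type bead array 3), with a median of -0.35. Its osteoclast and macrophage subunit Atp6v0d2 read 11.82, 11.65 and 11.74 in the wild-type arrays and 10.65 and 10.41 in the knockout arrays, 2.31-fold lower (-1.21 ± 0.17). The ubiquitous form Atp6v0d1 was 1.65-fold lower (-0.72 ± 0.10). The cathepsins' higher count ran from 2 with the arrays centred on their medians to 7 with array weights. The pump's lower count ran from 2 without unstimulated knockout array 1 to 9 without wild-type bead array 3, and the hydrolases' ran from 1 without unstimulated knockout array 1 to 8 with the 5 unstimulated arrays alone, while the hydrolases' higher count ran from 1 with the arrays centred on their medians or without either unstimulated knockout array to 9 with array weights. Hvcn1, a proton channel of the phagosome, was 4.37-fold lower (-2.13 ± 0.20).

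A few genes known from pigment cells stood among the 40 lowest. A list of 20 pigment cell genes was therefore added after their values were seen, and is given as a description. Mlana, a melanosome protein, read 9.16, 9.0 and 9.09 in the wild-type arrays and 6.43 and 6.08 in the knockout arrays, 7.1-fold lower (-2.83 ± 0.16). Slc24a5, a cation exchanger of the melanosome, read 10.72, 10.64 and 10.77 in the wild-type arrays and 8.51 and 8.08 in the knockout arrays, 5.34-fold lower (-2.42 ± 0.24). Tspan10, a tetraspanin, read 9.87, 9.53 and 9.66 in the wild-type arrays and 6.32 and 6.24 in the knockout arrays, 10.6-fold lower (-3.40 ± 0.17). All 3 were bright in wild type, and Mreg (melanoregulin) was 1.78-fold lower too (-0.84 ± 0.13). The other 16 members did not pass, and the median of the list was -0.02. The melanin enzymes themselves were near the bottom of the scale in both lines, with Tyr at 4.22, 4.16 and 4.13 in the wild-type arrays and 4.14 and 4.35 in the knockout arrays. Gpnmb, a lysosomal glycoprotein shared by macrophages and pigment cells, read 12.95, 13.03 and 12.87 in the wild-type arrays and 12.73 and 12.75 in the knockout arrays and did not pass (-0.21 ± 0.09, adjusted p = 0.265). Mitf, the factor that drives melanosome and osteoclast genes, read 9.21, 9.26 and 9.16 in the wild-type arrays and 9.49 and 9.57 in the knockout arrays, a difference of 0.32 ± 0.18 that did not pass (adjusted p = 0.467). Without wild-type bead array 3 Mitf passed as higher (adjusted p = 0.0295), and the other 15 members did not pass.

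Mitf and its relatives bind the M-box TCATGTG, and 2 of these promoters are shown because they hold it (capitals, here as the reverse CACATGA), in the RefSeq window at chr2:125067877-125068176, plus strand (Slc24a5) and chr11:120442381-120442680, plus strand (Tspan10).
Slc24a5: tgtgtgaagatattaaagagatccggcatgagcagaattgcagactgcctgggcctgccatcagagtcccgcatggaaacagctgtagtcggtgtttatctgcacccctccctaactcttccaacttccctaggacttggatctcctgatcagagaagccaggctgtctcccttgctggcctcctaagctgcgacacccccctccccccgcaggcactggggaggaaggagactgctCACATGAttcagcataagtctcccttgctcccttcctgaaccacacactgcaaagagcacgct
Tspan10: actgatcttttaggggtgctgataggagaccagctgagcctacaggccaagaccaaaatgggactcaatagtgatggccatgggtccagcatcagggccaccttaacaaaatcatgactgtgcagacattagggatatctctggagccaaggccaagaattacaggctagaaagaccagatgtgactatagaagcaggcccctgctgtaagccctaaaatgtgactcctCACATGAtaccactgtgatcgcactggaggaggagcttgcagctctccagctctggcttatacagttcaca
Each held 1 match. Of 20 promoters of 14 pigment genes listed by RefSeq, 7 (35%) held the letters. The share was 3.77% for all promoters, 2.82% for those of the genes tested and 2.99% for those of all lower genes. Among those with a match were genes such as Tyr that did not differ beyond the threshold.

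Lipid genes differed in both directions. Of 23 genes of fatty acid synthesis and lipid droplets 5 were lower and 2 higher (9 and 4 without wild-type bead array 3), with a median of -0.23. Fasn, fatty acid synthase, read 10.16, 10.25 and 10.05 in the wild-type arrays and 9.18 and 9.62 in the knockout arrays, 1.68-fold lower (-0.75 ± 0.14), and Acaca, which makes its substrate, was 1.87-fold lower (-0.90 ± 0.17). Plin2, the coat protein of lipid droplets, read 9.61, 9.55 and 9.47 in the wild-type arrays and 11.19 and 11.35 in the knockout arrays and was 3.32-fold higher (1.73 ± 0.09, adjusted p = 7.38e-06), and Fads2, a fatty acid desaturase, differed by 0.69 ± 0.16. Of 20 cholesterol synthesis genes 1 passed, Dhcr7, the enzyme of the last step (-0.83 ± 0.15; 5 lower without wild-type bead array 3), and the median was 0.04. Among 23 genes of lipid efflux and uptake 5 were higher and 5 lower (6 and 6 without that array). Apoe was 12.0-fold lower (-3.58 ± 0.16) and the fatty acid binding protein Fabp5 2.5-fold (-1.32 ± 0.16). The cholesterol exporter Abca1 was 2.16-fold higher (1.11 ± 0.16), and the nuclear receptor Pparg 1.89-fold (0.92 ± 0.18). The count of lower synthesis genes ran from 0 with the arrays centred on their medians or without unstimulated knockout array 1 to 9 without wild-type bead array 3, and that of higher ones ran from 1 with the arrays centred on their medians or with any 1 unstimulated array left out to 5 with array weights. For efflux and uptake the higher count ran from 2 without unstimulated knockout array 1 to 6 with the 5 unstimulated arrays alone, and the lower count ran from 3 with the arrays centred on their medians or with any 1 unstimulated array left out to 7 with array weights. The calls of Fasn, Acaca, Fads2, Dhcr7 and Pparg were lost under 2 to 6 of the 15 alternatives.

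Stress genes of the endoplasmic reticulum held 6 lower and 3 higher of 25 (9 and 5 without wild-type bead array 3). The chaperones Hyou1 and Hsp90b1 differed by -0.75 ± 0.12 and -0.70 ± 0.15. Ddit3 (CHOP), a transcription factor of that response, read 7.05, 7.01 and 6.99 in the wild-type arrays and 7.95 and 8.13 in the knockout arrays, 2.03-fold higher (1.02 ± 0.14). The lower count ran from 0 with the arrays centred on their medians or without unstimulated knockout array 1 to 10 with array weights, and the higher count ran from 1 with the arrays centred on their medians or with any 1 unstimulated array but wild-type array 2 left out to 7 with array weights. Dnajb4, a cytosolic heat shock co-chaperone, was 3.7-fold higher (1.89 ± 0.13), with 2 of the other 14 heat shock chaperones lower, a count that ran from 0 with the arrays centred on their medians or with any 1 unstimulated array left out to 6 with array weights. The calls of Hyou1 and Hsp90b1 were lost under 2 to 5 of the 15 alternatives.

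Macrophage surface markers differed in both directions, 7 of 32 higher and 4 lower (10 and 5 without wild-type bead array 3), around a median of 0.08. Cd14, the co-receptor for lipopolysaccharide, read 7.94, 8.14 and 7.87 in the wild-type arrays and 10.55 and 10.34 in the knockout arrays. It was 5.52-fold higher (2.46 ± 0.18). Aif1 (Iba1) was 2.45-fold higher (1.29 ± 0.19), and Adgre1, a classical marker of mouse macrophages, 1.85-fold (0.89 ± 0.16). On the other side Mertk, the receptor for dying cells that Gas6 bridges to, read 7.62, 7.94 and 7.83 in the wild-type arrays and 6.22 and 6.38 in the knockout arrays, 2.83-fold lower (-1.50 ± 0.21). Siglec1, a sialic acid receptor of resident macrophages, was 3.04-fold lower (-1.60 ± 0.16), and the mannose receptor Mrc1 11.3-fold (-3.50 ± 0.20). Fc receptors differed both ways. The activating receptor Fcgr1 read 8.56, 8.78 and 8.62 in the wild-type arrays and 9.82 and 9.77 in the knockout arrays and was 2.2-fold higher (1.14 ± 0.15), while the inhibitory Fcgr2b was lower as above. Clec7a, the β-glucan receptor Dectin-1, read 8.04, 8.12 and 7.99 in the wild-type arrays and 7.84 and 7.66 in the knockout arrays, a difference of -0.30 ± 0.23 that did not pass (adjusted p = 0.71). The higher count ran from 4 with the arrays centred on their medians or without unstimulated knockout array 1 to 12 with array weights. The call of Adgre1 was lost under 3 of the 15 alternatives.

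Transcription factors that set macrophage state held 4 higher and 5 lower members of 28 (8 and 7 without wild-type bead array 3), and the counts ran from 1 with the arrays centred on their medians or without unstimulated knockout array 2 to 8 with the 5 unstimulated arrays alone for the higher and ran from 3 with the arrays centred on their medians or without either unstimulated knockout array to 8 with array weights for the lower. Maf, a factor of differentiated macrophages, read 9.93, 10.07 and 9.89 in the wild-type arrays and 7.50 and 7.84 in the knockout arrays. It was 4.89-fold lower (-2.29 ± 0.14, adjusted p = 1.1e-05). Id2, an inhibitor of helix-loop-helix factors, was 3.65-fold lower (-1.87 ± 0.20), and the ETS factor Etv1 3.45-fold (-1.79 ± 0.22). Ets2 was 2.8-fold higher (1.49 ± 0.19). Spi1, which encodes PU.1, read 10.98, 10.48 and 10.70 in the wild-type arrays and 11.57 and 11.14 in the knockout arrays, a difference of 0.63 ± 0.30 that did not pass. Of 21 genes that interleukin 4 and 13 are known to induce, 6 were lower and 5 higher (6 and 6 without that array), so the list had no common direction. The lower count ran from 3 without unstimulated knockout array 1 to 6 with the 5 unstimulated arrays alone, and the higher count ran from 2 without unstimulated knockout array 2 to 6 with the 5 unstimulated arrays alone. Il13ra1, a chain of their receptor, was 10.1-fold lower (-3.33 ± 0.24), Arg1 (arginase) 2.14-fold (-1.10 ± 0.19) and the eosinophil chemokine Ccl24 2.3-fold (-1.20 ± 0.13), whereas Klf4, Egr2 and Pparg were higher. Among 22 osteoclast and cell fusion genes 4 were higher and 2 lower (5 and 5 without that array). The fusion proteins Dcstamp and Ocstamp were higher (0.80 ± 0.13 for Ocstamp), as was the kinase Src (1.63 ± 0.18), which osteoclasts need to resorb bone, while Ctsk and Atp6v0d2 of the resorbing machinery were lower. The calls of Arg1 and Ocstamp were lost under 1 to 2 of the 15 alternatives.

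CC chemokines differed in both directions. Ccl2 and Ccl7, both ligands of CCR2, were lower. Ccl7 read 8.28, 8.66 and 8.16 in the wild-type arrays and 6.28 and 6.29 in the knockout arrays, 4.22-fold lower (-2.08 ± 0.15), and Ccl2 read 9.73, 9.64 and 9.66 in the wild-type arrays and 8.60 and 8.19 in the knockout arrays, 2.44-fold lower (-1.28 ± 0.17). Ccl5, a chemokine that interferon also induces, read 6.75, 6.45 and 6.59 in the wild-type arrays and 10.15 and 9.37 in the knockout arrays, 8.96-fold higher (3.16 ± 0.23). Ccl4 and Ccl3, neighbours in function, differed by 0.52 ± 0.12 and -0.58 ± 0.12. In all 3 of 17 CC chemokines were higher and 4 lower (3 and 5 without wild-type bead array 3), and the higher count ran from 1 with the arrays centred on their medians or with any 1 unstimulated array but wild-type array 2 left out to 3 with the 5 unstimulated arrays alone. Of 16 CXC chemokines 4 were higher and 0 lower under every alternative. Besides Cxcl10 these were Cxcl16, a membrane-bound scavenger of oxidised lipid, at 10.5-fold (3.39 ± 0.24), Cxcl14 at 4.33-fold (2.12 ± 0.14) and Pf4, platelet factor 4, at 4.3-fold (2.10 ± 0.22). The calls of Ccl4 and Ccl3 were lost under 5 to 6 of the 15 alternatives.

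Receptors for chemoattractants were higher in 4 of 22 (18.2%, against 3.79% of all genes) and lower in 0 (5 and 0 without wild-type bead array 3). Ptafr, the receptor for platelet-activating factor, read 6.74, 6.45 and 6.41 in the wild-type arrays and 8.60 and 8.65 in the knockout arrays, 4.26-fold higher (2.09 ± 0.12). The receptors for complement fragments, C5ar1 and C3ar1, differed by 0.98 ± 0.14 and 0.77 ± 0.12, and Cxcr3, the receptor of Cxcl10, by 0.91 ± 0.14. Among Toll-like receptors and co-receptors 6 of 18 were higher (33.3%, against 3.79% of all genes) and 1 lower (8 and 1 without that array). Their higher count ran from 3 with the arrays centred on their medians or without unstimulated knockout array 2 to 9 with array weights. Tlr2, which senses bacterial lipopeptides, read 9.11, 9.03 and 8.97 in the wild-type arrays and 10.47 and 10.51 in the knockout arrays, 2.74-fold higher (1.46 ± 0.12), and Ly86 (MD-1) was 3.38-fold higher (1.76 ± 0.13). Of 23 cytokines of the interleukin 1, 6, 10 and 12 families 4 were higher and 2 lower, with or without wild-type bead array 3. They included Ebi3, a subunit shared by interleukins 27 and 35, at 3.92-fold higher (1.97 ± 0.23), while Il1a and Osm were lower at -0.67 ± 0.16 and -0.44 ± 0.11, the knockout level of Il1a lying under the 25th percentile of its arrays. The higher count ran from 1 with the arrays centred on their medians, or 2 without unstimulated knockout array 1, to 4 with the 5 unstimulated arrays alone, and the lower count ran from 0 with the arrays centred on their medians or with any 1 unstimulated array but wild-type array 1 left out to 2 with the 5 unstimulated arrays alone. Tnf was 1.77-fold higher (0.83 ± 0.12). Pycard (ASC), the adaptor of inflammasomes, read 7.21, 7.60 and 7.29 in the wild-type arrays and 6.11 and 5.79 in the knockout arrays, 2.67-fold lower (-1.42 ± 0.16), while the inflammasome protease Casp4 differed by 1.23 ± 0.22. Cybb, the catalytic subunit of the phagocyte NADPH oxidase, was 8.65-fold higher (3.11 ± 0.33). The calls of C5ar1, C3ar1, Il1a, Osm, Tnf and Casp4 were lost under 1 to 8 of the 15 alternatives.

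Growth factors and their receptors held 6 higher and 7 lower of 37 (7 and 9 without wild-type bead array 3), and the higher count ran from 3 with the arrays centred on their medians or without either unstimulated knockout array to 8 with array weights. Pdgfb, a platelet-derived growth factor chain, read 7.72, 7.73 and 7.84 in the wild-type arrays and 10.17 and 10.28 in the knockout arrays, 5.52-fold higher (2.46 ± 0.09, adjusted p = 7.73e-07), and Hgf was 2.16-fold higher (1.11 ± 0.11). Csf1, the ligand of the CSF1 receptor, read 9.78, 9.86 and 9.79 in the wild-type arrays and 8.58 and 8.59 in the knockout arrays, 2.34-fold lower (-1.23 ± 0.15), and Igf1 was 2.67-fold lower (-1.42 ± 0.14). Receptor and ligand thus stood in opposite directions, with Csf1r higher in the line where Csf1 was lower. Eng (endoglin), a co-receptor for TGF-beta, was 2.71-fold higher (1.44 ± 0.09). In the Hedgehog and Wnt pathways Smo, the Hedgehog signal transducer, was 3.3-fold lower (-1.72 ± 0.20) and the Wnt co-receptor Lrp5 2.39-fold (-1.26 ± 0.11). Of 37 genes of the Wnt, Notch and Hedgehog list 3 passed, a share near that of all genes.

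Integrins were higher in 5 of 26 (19.2%, against 3.79% of all genes) and lower in 0 (6 and 0 without wild-type bead array 3). Besides Itga6, the fibronectin receptor chain Itga5 differed by 1.05 ± 0.18, Itgav, which pairs in vitronectin receptors, by 0.97 ± 0.12 and Itgb7 by 0.78 ± 0.11. Matrix proteins were higher in 5 of 32, led by the heparan sulfate proteoglycan Sdc3 (1.57 ± 0.13), and lower in 1, Sdc1 (-0.57 ± 0.09). The higher count of matrix proteins ran from 2 without unstimulated knockout array 1 to 6 with array weights, and that of integrins ran from 3 with the arrays centred on their medians or without unstimulated knockout array 2 to 8 with array weights. The protease Adam8 was 4.12-fold higher (2.04 ± 0.21), while Adamts1 and the inhibitor Timp2 were 3.82-fold and 2.85-fold lower (-1.93 ± 0.16 and -1.51 ± 0.20). The calls of Itga5 and Sdc1 were lost under 1 to 2 of the 15 alternatives.

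Clotting and plasminogen genes were among the lists with most calls, 6 higher and 3 lower of 19 with or without wild-type bead array 3. Tfpi, the inhibitor of the tissue factor pathway, read 5.31, 5.15 and 5.40 in the wild-type arrays and 8.27 and 7.95 in the knockout arrays. It was 7.08-fold higher (2.82 ± 0.14, adjusted p = 4.65e-06), and F7, the protease that tissue factor activates, was 1.84-fold lower (-0.88 ± 0.11). S100a10 and Anxa2, which form a plasminogen receptor on the cell surface, were 2.79-fold and 1.91-fold higher (1.48 ± 0.14 and 0.94 ± 0.13). Pros1 (protein S) differed by 1.95 ± 0.19 from a wild-type level under the 25th percentile of each array, so no fold is given. Pros1 and Gas6 are related ligands of the same receptors, and they differed in opposite directions.

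S100 proteins and annexins, calcium-binding proteins of membrane and cytoskeleton, were higher in 9 of 24 and lower in 0 (11 and 1 without wild-type bead array 3), with a median of 0.23. S100a6 read 6.0, 6.35 and 6.46 in the wild-type arrays and 10.58 and 10.41 in the knockout arrays, 18.7-fold higher (4.23 ± 0.17), and S100a11 read 10.36, 10.07 and 10.14 in the wild-type arrays and 12.63 and 12.53 in the knockout arrays, 5.24-fold higher (2.39 ± 0.16). Of the 9, 6 lay in a stretch of chromosome 3 described next and 3 outside it. Among 29 calcium and potassium channels and pumps 4 were higher and 4 lower (8 and 7 without wild-type bead array 3), with a median of -0.02, and 2 of the lower ones lay in the stretches. The calcium pumps Atp2a3 and Atp2a2 were lower, by 8.39-fold (-3.07 ± 0.18) and 1.93-fold (-0.95 ± 0.13). Potassium channels Kcnj2 and Kcnn4 were 3.35-fold and 2.16-fold higher (1.75 ± 0.13 and 1.11 ± 0.10). The higher count of channels and pumps ran from 2 with trended eBayes or with any 1 unstimulated array but knockout array 1 left out to 9 with array weights, and the lower count ran from 3 with the arrays centred on their medians to 7 with the 5 unstimulated arrays alone. Nucleotide receptors parted too, P2ry1 being 2.1-fold lower (-1.07 ± 0.15) and P2ry14 1.87-fold higher (0.90 ± 0.13), and the pannexin channel Panx1, which releases ATP, was 2.15-fold lower (-1.11 ± 0.11). Plxna2, a semaphorin receptor, was 4.37-fold lower (-2.13 ± 0.13). Of 17 circadian clock genes 2 were higher and 2 lower (3 and 3 without wild-type bead array 3). Arntl (Bmal1) was 2.14-fold higher (1.10 ± 0.13), and Bhlhe41, a repressor of the clock, differed by -1.49 ± 0.28. The lower count of clock genes ran from 0 without unstimulated knockout array 1 to 4 with array weights, and the higher count ran from 1 without unstimulated knockout array 1 to 3 with the 5 unstimulated arrays alone. Among methylation enzymes Tet2 was 1.9-fold higher (0.93 ± 0.12). The call of Bhlhe41 was lost under 3 of the 15 alternatives.

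The position of a gene went along with the direction of its difference in 3 stretches of the genome, a pattern found after the values were seen and given without a test. The brighter genes of chromosomes 1 to 19 and X, those above the median signal (9950 genes), were placed in RefSeq order and cut into 200 windows of 50 neighbours, fewer at chromosome ends. The median window differed by -0.04, and the 5th and 95th percentiles were -0.22 and 0.08. All 6 windows at or above 0.15 followed one another on chromosome 3, from Mfsd1 to Eif4e. Of the 7 windows at or below -0.30, 4 lay at the far end of chromosome 5 and 3 on chromosome 1, the first 2 of these neighbours and the third farther along.

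In the chromosome 3 stretch 243 of 300 brighter genes (81.0%) read higher in the knockout line, with a median of 0.23, against 44.5% of all brighter genes. The test passed 61 of them as higher and 7 as lower. The 100 genes before it on the same chromosome had a median of -0.13. The 43 genes after it, from Tspan5 to Wls, had a median of 0.07, with 11 higher and 3 lower. The chromosome 5 stretch, from Rph3a to Rfc3, had a median of -0.39 over 261 genes, of which 17.2% read higher, and 95 passed as lower and 5 as higher. That is 38.3% of its genes, against 14.6% of all brighter genes. The 350 genes of the first 7 windows of chromosome 5 had a median of -0.06. Between them and the stretch, the 50 genes from 2210016L21Rik to Oas1a had a median of -0.2, with 13 lower and 5 higher. On chromosome 1, the 100 genes from Pask to Tmem9 had a median of -0.46, with 32 lower and 3 higher, and the 452 other genes one of -0.13. The latter include the window from Nvl to Traf3ip3, apart from the stretch, which had a median of -0.33 with 12 lower and 1 higher.

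The stretches were alike in the arrays of a line. After each gene was centred over the arrays, the chromosome 5 stretch read 0.17, 0.17 and 0.13 in the wild-type arrays and -0.20 and -0.24 in the knockout arrays. In the chromosome 3 stretch the knockout arrays read 0.17 and 0.14 and the wild-type arrays -0.09, -0.11 and -0.11. The window median of the difference between the 2 knockout arrays was at most 0.13 in size. For wild-type array 2 against the mean of arrays 1 and 3 it was at most 0.16, and for array 1 against array 3 at most 0.12. The bead arrays, which are other arrays of the same lines, gave 0.32 for the chromosome 3 stretch, -0.33 for that on chromosome 5 and -0.43 for that on chromosome 1, and 0.23, -0.45 and -0.56 without wild-type bead array 3. Chromosome copy number was not measured here. Over all tested genes the 3 stretches held 77 of the higher and 142 of the lower genes, and outside them 678 were higher and 748 lower (7.61% of 18743). Of the genes named above that passed, S100a6, S100a10, S100a11, Ctss, Fcgr1, Tlr2 and Tet2, all higher, lie in the chromosome 3 stretch. So do Ctsk, Csf1 and Sort1, which were lower, against most genes of that stretch. Rfc2, Mcm7, Mdh2, Atp2a2, Hvcn1 and Ccl24 lie in that of chromosome 5, and Mcm6, Kdm5b and Steap3 in that of chromosome 1.

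**Figure D5:**
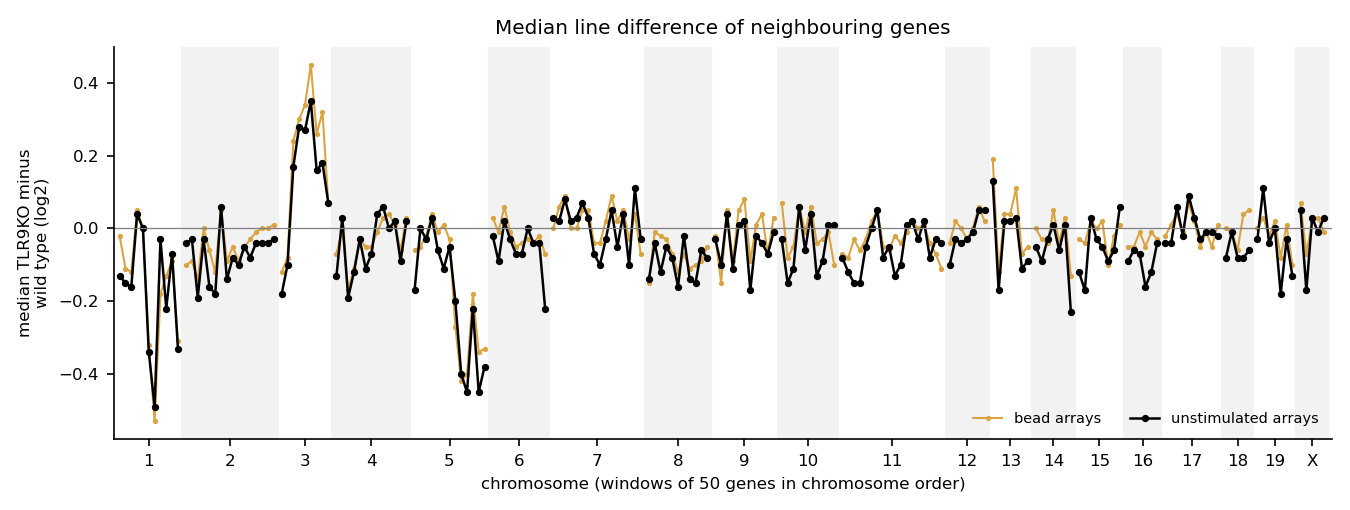
Median difference between the lines (TLR9KO minus wild type, log2) in windows of 50 neighbouring brighter genes along each chromosome, for the unstimulated arrays (black) and the bead arrays (gold). The black line rises to 0.35 on chromosome 3 and falls to -0.45 at the end of chromosome 5 and to -0.49 on chromosome 1, and the gold line runs close to it.

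The genes around Tlr9 itself were counted over both sides together, dim ones included, and not in windows of brighter genes. Of the 25 genes on either side in RefSeq order 34 were tested, with a median of 0.00, 0 higher and 4 lower (11.8%). These were Aste1, before Tlr9, at -0.52 and Dusp7, Abhd14a and Rrp9, after it, at -0.50, -0.68 and -0.60. Of the tested genes from Alas1 to Rrp9, next to Tlr9 on that side, Rpl29 and Pcbp4 alone read above 0, at 0.05 and 0.10. Whether this side holds a run of lower genes was not tested.

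The bead arrays of the same lines served as a second set of measurements, but their calls were not independent of the unstimulated calls. Both came from the fit of all 10 arrays, so a gene's pooled scatter entered both tests. With beads the lines differed at 1439 genes (7.22%), and 1190 of these had passed without beads in the same direction and none in the other. That is 72.3% of the unstimulated calls and 82.7% of the bead calls, and 95.4% of the unstimulated calls of at least 2-fold. A gene with little pooled scatter passes more easily in both tests, so these shares are no independent check of the calls. The direction with beads does not use that scatter, and it was the same for 1640 of the 1645 unstimulated calls (99.7%). The share over all genes tested was not counted, so no background stands beside this one. Both sets of arrays came from the same lines, so a shared direction does not speak of the genotype. In the limma test of the interaction, that is of a change in the line difference with beads, 0 genes passed (smallest adjusted p = 1, and 172 genes at an unadjusted p under 0.05). Wild-type bead array 3 entered this contrast and widened its spread. The interaction was not examined without that array, so 0 calls do not show that beads left the line difference unchanged. Ccnd2 differed by 2.79, Fcgr2b by -2.72, Gas6 by -2.63 and Tfpi by 2.79 with beads. For the S phase list 11 members passed with beads, all lower, for mitosis 3, for the tricarboxylic acid cycle 7 lower and 1 higher, and for iron 5, all lower.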

How the data were processed

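Total RNA of the 10 samples was hybridised to Affymetrix arrays, and the authors deposited log2 signals per probe set, made with RMA per the submitters' processing notes. The sources used here name neither the probe annotation nor its build, nor whether all arrays were normalised together. Of 28853 probe sets, 21789 carried 1 gene symbol in the platform annotation. For each of 19938 genes the brightest such probe set, by its mean over all arrays, was kept. No dim gene was removed. In R 4.3.3, limma 3.58.1 (lmFit, then eBayes with neither trend nor robust fitting) was run with 4 group means on all 10 arrays (6 residual and 3.23 prior degrees of freedom), and tests were two-sided with Benjamini-Hochberg adjustment over all genes and a threshold of 0.05. The code was tested on simulated data.

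The 85 gene lists and the members were chosen with earlier results of these data known. Of their genes 1784 were measured, 42 lay only on shared probe sets and 99 were not analysed here. Lists are described by counts and medians. Named are the 40 highest and 40 lowest genes that passed without overlap (predicted genes, olfactory receptors, small RNAs and pseudogenes left out), up to 4 members per list and direction (or 2 where none passed), Tlr9, Clec7a and defining macrophage markers. Motifs were searched on both strands of RefSeq promoter windows (GRCm38.p6). RefSeq gave gene order only. Titles carry array numbers of undescribed meaning, 7 and 9 for the unstimulated knockout arrays and 16 to 18 for wild type, so an order of handling, if they are one, cannot be told apart from the line. The number of arrays limits the precision. Settings varied were the arrays fitted, array weights, eBayes options, centring, quantile normalisation, a filter on dim genes and the averaging of probe sets.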

Additional observations from a re-analysis of the deposited data

Results flagged for a closer look

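Probe sets that the annotation pairs with no gene were outside the gene tests. Of 5443 such probe sets 57 were higher and 46 lower in the unstimulated knockout line (1.89%), and of 1621 probe sets paired with several genes 45 were higher and 31 lower (4.69%). The 2 highest and 2 lowest unnamed ones are given because their signal lay outside the main measurement. Probe set 10429564 read 10.24 and 9.74 in the knockout arrays against 3.92, 3.81 and 4.06 in the wild-type arrays, a log2 difference of 6.06 ± 0.18 (SE, limma adjusted p = 3.42e-07 over all probe sets). Its wild-type values lay under the 25th percentile of each array, so the difference gives no fold and no rank. Probe set 10502791 read 11.09 and 10.97 against 5.94, 6.07 and 6.05 (5.01 ± 0.12). In the other direction, probe set 10598626 read 4.54 and 4.89 against 9.99, 10.38 and 10.16 (-5.46 ± 0.15), and probe set 10579744 read 4.98 and 5.09 against 8.85, 9.02 and 8.81 (-3.85 ± 0.09).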

How the results depend on the processing

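Of 386 named genes 0 changed direction under any of the 15 alternatives, and 191 of the 365 that passed kept their call under every alternative that tested them. The other 174 lost it under at least 1, most often when knockout array 1 was left out (149), when the arrays were centred on their medians (148) or when knockout array 2 was left out (135), and 10 that had not passed did so somewhere. The total of 1645 genes (755 higher, 890 lower) became 3262 (1270 and 1992) with the 5 unstimulated arrays alone, 3668 (1412 and 2256) without wild-type bead array 3 and 4451 (1850 and 2601) with array weights, whose estimation stopped before convergence and gave that array a weight of 0.07. It became 756 (415 and 341) with centring on the median and 2483 (1158 higher) after quantile normalisation. Without single unstimulated arrays it ran from 681 to 1100, with 399 to 567 higher and 279 to 533 lower. A knockout group of 1 array is then assumed to vary like the other groups. The median of all genes was 0.02, and -0.03 and 0.07 with centring on the median and the 75th percentile. Of the 505 calls of at least 2-fold, 388 held under every alternative that tested them. Trended and robust eBayes, centring on the 75th percentile, the filter on dim genes and the mean over probe sets moved the total by less than 1.5 times. No paired analysis was possible because no label numbers replicates across the groups. The windows along chromosomes and the pigment gene list were added after the data were seen. Probe sets with a signal near the bottom of the scale give no fold, and without detection calls their level is unknown.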
